A study of Mus musculus with 15 samples.

Results

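Ribosomal protein genes were followed across 5 regions of the embryonic mouse brain. A gene was taken when its symbol was Rpl or Rps, a number and at most 1 further letter, or when it was Rplp0, Rplp1, Rplp2 or Rpsa. This rule found 81 of the 24264 genes in the deposited table, 49 for proteins of the large subunit and 32 for proteins of the small subunit. All samples came from E12.5 embryos of C57bl/6 mice that carried a green fluorescent protein transgene under the promoter of Th, the gene of tyrosine hydroxylase, and no other genotype or treatment was compared. The groups were the ventral midbrain, the dorsal midbrain, the alar plate, the forebrain and the hindbrain, with 3 libraries each, dissected under a microscope and made from 200 ng of RNA. Whether libraries of 1 region derive from different embryos is not given in the labels. The spread behind every p-value here is that between libraries, and it may be technical. The brain level of the alar plate dissection is not given either.

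A ribosome is built from a large and a small subunit, each a core of ribosomal RNA dressed with proteins that are nearly all present as single copies, so cells make these proteins in matched amounts. Their mRNAs are among the most abundant in growing cells. Many of them begin with a C and a run of pyrimidines at the very 5′ end, the terminal oligopyrimidine motif, through which mTOR and LARP1 control their translation, and the nucleolus is where the subunits are assembled. In the embryonic brain, dividing progenitors make ribosomes for growth, and newborn neurons leave the cell cycle.

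Runs like this were looked for near the annotated start sites, which need not be the starts used in this tissue. Examples of members with and without a match are given here. The RefSeq promoter table for GRCm38.p6 held 60 of the 81 members. A run was called when a C was followed by at least 5 further C or T bases on the coding strand and its first base lay from 5 bases before to 10 bases after the annotated start. It was found in 28 of the 60 members (46.7%), against 16.1% of all 27025 genes in that table and 17.1% of the 9381 genes that were tested here and had an entry. Each window below runs 5′ to 3′ from 15 bases before the start to the first 15 transcribed bases, with the run in capitals.
Rpl12 (chr2:32961697-32961726, plus strand): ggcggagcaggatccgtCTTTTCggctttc
Rps10 (chr17:27635230-27635259, minus strand): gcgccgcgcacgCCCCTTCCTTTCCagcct
Rps18 (chr17:33955651-33955680, minus strand): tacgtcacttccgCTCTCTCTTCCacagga
Rpl28 (chr7:4792950-4792979, plus strand): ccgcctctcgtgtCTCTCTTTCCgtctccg
Rps24 (chr14:24490663-24490692, plus strand): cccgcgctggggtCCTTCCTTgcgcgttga
Rpl15 (chr14:18270972-18271001, minus strand): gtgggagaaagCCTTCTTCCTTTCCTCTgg
Rpl10a (chr17:28328456-28328485, plus strand): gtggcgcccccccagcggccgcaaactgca
Rps4x (chrX:102189377-102189406, minus strand): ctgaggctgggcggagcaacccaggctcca
Rplp0 (chr5:115559452-115559481, plus strand): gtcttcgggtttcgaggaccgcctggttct
Rps27l (chr9:66946071-66946100, plus strand): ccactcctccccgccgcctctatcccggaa
Rpl22 (chr4:152324421-152324450, plus strand): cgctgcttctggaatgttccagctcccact
Rpl12, Rps10, Rps18, Rpl28 and Rps24 are shown as members with a run that were among those that differed most between regions, Rpl10a, Rps4x and Rplp0 as members without one that are described at length below, Rpl15 because it has a run of 17 bases and differed least, and Rps27l and Rpl22 because their levels departed most from those of the family. No run was found in any start window listed for Rpl10a, Rps4x, Rplp0, Rps27l or Rpl22, and where several starts are listed for these the first is shown. Rps24 has a run at the first of its 2 listed starts, which is the one shown. A second motif, CCGGAA on either strand, the core of ETS-type factor sites, was found in the 300-base promoter windows of 33 of the 60 members (55.0%), against 16.7% of all genes in the table and 30.3% of tested genes. A match is a description of these letters, not a measured site, and a missing match does not show that an mRNA lacks the terminal motif.

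The library called alar plate 3 stood apart, and it is shown apart. Its genes with short models were raised, and ribosomal protein genes are short: 71 of the 78 members tested lay in the shortest of 4 equal classes of gene models, 6 in the next and 1, Rps15a, in the longest. Dorsal midbrain 3 and forebrain 1 also lay apart from the other libraries of their regions. Tcf7l2, which is strongly expressed in the developing thalamus, was at 378 RPKM in dorsal midbrain 3 and at 22.9 and 18.9 RPKM in the other 2 dorsal midbrain libraries. Th and Foxa2 were highest in the ventral midbrain libraries and Tal2 in the dorsal midbrain libraries, and Hoxa2 was at 0.107 RPKM in hindbrain 1 against 11.1 and 6.24 RPKM in the other 2 hindbrain libraries. Reads recovered from the RPKM values summed to between 8030054 and 12149081 per library. Differences below come from limma on log2(RPKM + 1) in 14 libraries, without alar plate 3. They are given on that scale with a standard error (SE) and a Benjamini-Hochberg adjusted p over the 13717 genes tested, and a gene with an adjusted p under 0.05 is said to have changed.

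The members were abundant. In the 14 libraries the 78 tested members had a mean between 24.75 and 549 RPKM with a median of 205 RPKM, against a median of 10.1 RPKM for all genes tested, and 69 of the 78 were above 100 RPKM. Among the highest were Rpl41 at 549 RPKM, Rpl8 at 467, Rplp0 at 426, Rps9 at 422, Rpl7 at 392.1, Rplp1 at 389 and Rps4x at 387. The lowest were Rps27l at 24.75 RPKM, Rps7 at 31.2, Rps15a at 38.3, Rpl21 at 40.4, Rpl22 at 69.4, Rps24 at 78.7, Rpl37 at 81.7 and Rps20 at 90.2. The median was 196 RPKM for the large subunit and 239 RPKM for the small subunit. Proteins that stand in the ribosome as single copies thus had listed mRNA levels that differed widely.

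Part of that spread sits beside rows for near-identical copies, and how the counting split their reads is not given in the sources used here. The table holds 6 rows named as ribosomal protein pseudogenes with means between 117 and 366 RPKM. Rpl31-ps12 had a mean of 366 RPKM against 145 RPKM for Rpl31, and Rps15a-ps6 and Rps15a-ps4 had 129 and 139.7 RPKM against 38.3 RPKM for Rps15a. Rps15a also had the longest gene model of the members, 1.83 relative to the median gene against a member median of 0.275, and RPKM is scaled for that length. The part of copies and of model length in these levels was not tested. Levels of single members are therefore uncertain where such copies exist. All 6 of these rows were higher in the dorsal midbrain than in the other regions, by 0.25 to 0.39 on the log2 scale.

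The 3 members that were not tested were paralogs known mainly from testis (Rpl10l, Rpl39l) or striated muscle (Rpl3l). Rpl10l was listed at 0 in all libraries but alar plate 3, where it was at 0.0871 RPKM. Rpl39l lay between 0 and 0.189 RPKM and was above 0 in 6 of the 15 libraries, and Rpl3l lay between 0 and 0.0948 RPKM and was above 0 in 9. Their parent genes Rpl10, Rpl39 and Rpl3 had means of 319, 228 and 267 RPKM.

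The order of the members by level was nearly the same everywhere. Spearman's rho of the 78 levels between 2 of the 14 libraries lay between 0.975 and 0.997, and between alar plate 3 and the others from 0.963 to 0.976. These are correlations across genes, which share gene lengths and sequence composition and are not independent replicates.

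Their summed level differed between regions and between libraries of 1 region. The members held 5.83%, 5.72% and 4.69% of the summed RPKM of dorsal midbrain 1, 2 and 3. They held 5.10% and 4.83% in alar plate 1 and 2, 4.73%, 4.58% and 4.35% in the ventral midbrain, 4.55%, 3.97% and 4.08% in forebrain 1 to 3, and 4.37%, 4.02% and 3.88% in hindbrain 1 to 3. Dorsal midbrain 1 and 2 were above every library outside alar plate 3, while dorsal midbrain 3 lay within the range of the ventral midbrain. In each region the library numbered 1 held the largest share among the 14 libraries, and the labels do not say what a number shares. The means were 5.41% ± 0.63 in the dorsal midbrain (SD, n = 3), 4.96% ± 0.19 in the alar plate (SD, n = 2), 4.55% ± 0.19 in the ventral midbrain (SD, n = 3), 4.20% ± 0.31 in the forebrain (SD, n = 3) and 4.09% ± 0.25 in the hindbrain (SD, n = 3).

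**Figure D1:**
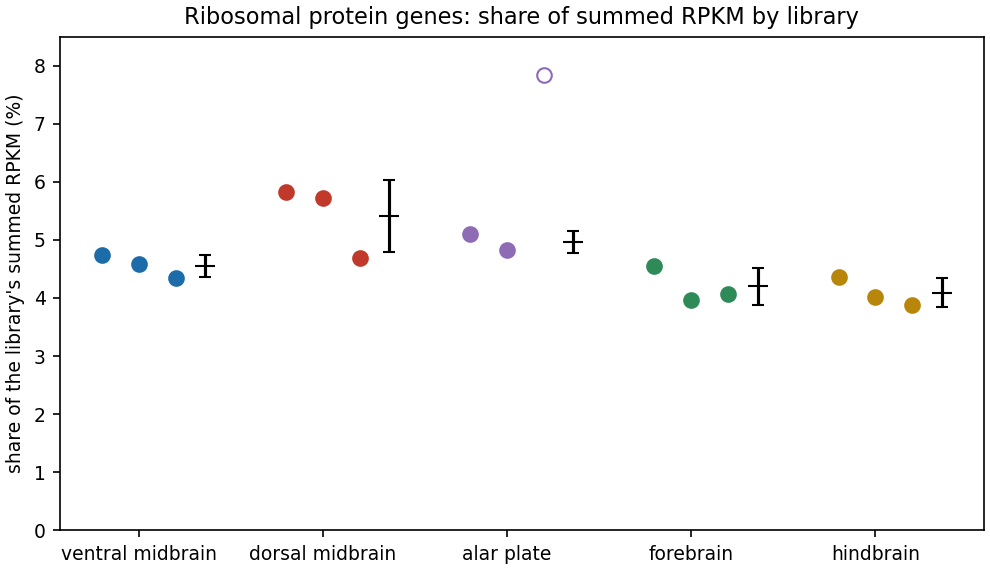
Share of the summed RPKM of each library held by the 81 ribosomal protein genes, in percent, by region; filled points are libraries, the open point is alar plate 3, and bars give the mean and SD without it. Dorsal midbrain 1 and 2 lie at 5.83% and 5.72%, the other 12 libraries at 5.10% or less, and alar plate 3 at 7.85%.

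As a share of recovered reads, which is not scaled for gene length, the members held 2.25% of the reads of dorsal midbrain 1 (Wilson 95% interval 2.24% to 2.26%) and 1.48% of those of hindbrain 3 (1.48% to 1.49%). Such intervals cover counting error only. In tissue samples, more cells with a given level and more RNA per cell cannot be told apart.

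In the 14 libraries the dorsal midbrain had the highest levels. Of the 78 members, 74 were higher there than in the mean of the other 4 regions, and none of the 78 was lower. Of all genes tested 30.8% were called higher in this comparison, 22.5% lower and 53.3% in either direction. That split depended on the scaling: 4230 genes were higher and 3083 lower as deposited, and 3437 higher and 3638 lower with median-ratio scaling, under which 62 of the 78 members were higher and 0 lower. The median difference was 0.31 for the members and 0.05 for all genes. The dorsal midbrain had the highest regional mean for 77 of 78 members, and dorsal midbrain 1 and 2 were the 2 highest of the 14 libraries for 75 of them, an ordering found in 25.0% of all genes. All 3 dorsal midbrain libraries lay above the other 11 for 1 member, Rps24, at 103.7, 98.0 and 84.8 RPKM against 84.3 RPKM at most (11.2% of all genes had such an order). The rank of dorsal midbrain 3 among the 14 libraries had a median of 6 over the members.

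Both subunits took part. In the large subunit 43 of 46 tested members were higher in the dorsal midbrain, with a median of 0.29, and in the small subunit 31 of 32, with a median of 0.34.

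The largest difference was that of Rps27l, a paralog of Rps27 known as a p53 target. It was at 41.8, 35.9 and 25.6 RPKM in the dorsal midbrain, at 24.6, 21.0 and 25.7 in the ventral midbrain, at 25.0 and 24.5 in alar plate 1 and 2, at 26.0, 17.0 and 18.4 in the forebrain and at 24.4, 17.1 and 19.4 in the hindbrain. Dorsal midbrain 1 and 2 were above all others, and dorsal midbrain 3 was within their range. The difference was 0.59 (SE 0.151, limma adjusted p 0.00706), a fold change of 1.51. Its parent Rps27 differed by 0.28 (SE 0.0837, limma adjusted p 0.0154).

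Rpl12, a protein at the base of the stalk to which translation factors bind, followed. It was at 229.7, 221 and 164 RPKM in the dorsal midbrain, at 172, 163 and 158 in the ventral midbrain, at 179 and 172 in alar plate 1 and 2, with 124 as the lowest, 130.5 as the median and 150 as the highest in the forebrain and at 138, 134 and 125 in the hindbrain. Levels in the forebrain and hindbrain were below all those of the other 3 regions. Rpl12 was 1.35-fold higher in the dorsal midbrain than in the other regions (0.43, SE 0.0890, limma adjusted p 0.00270).

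Rpl10a, a large subunit protein, had the largest F statistic over the 5 regions among the members. It was at 242, 240.0 and 193 RPKM in the dorsal midbrain, at 178, 172 and 162 in the ventral midbrain, at 199.6 and 184 in the alar plate, at 168, 158.5 and 153 in the forebrain and at 158, 145 and 140.1 in the hindbrain. Dorsal midbrain 3 lay below alar plate 1 and above every library of the other 3 regions. The difference of the dorsal midbrain was 0.42 (SE 0.0687, limma adjusted p 0.00102). Rps10 and Rps15, small subunit proteins, completed the 5 largest with 0.42 (SE 0.0939) and 0.40 (SE 0.0917).

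The 4 members that missed the threshold differed by 0.21 or less. Rpl15, a large subunit protein, was at 200.0, 198 and 176 RPKM in the dorsal midbrain and between 172 and 196.5 RPKM in the other 11 libraries, so the groups overlapped. Its difference was 0.07 (SE 0.0512, limma adjusted p 0.289). Rpl36 differed by 0.15 (SE 0.0744), Rps21 by 0.21 (SE 0.0894) and Rpl22 by 0.12 (SE 0.0621).

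**Figure D2:**
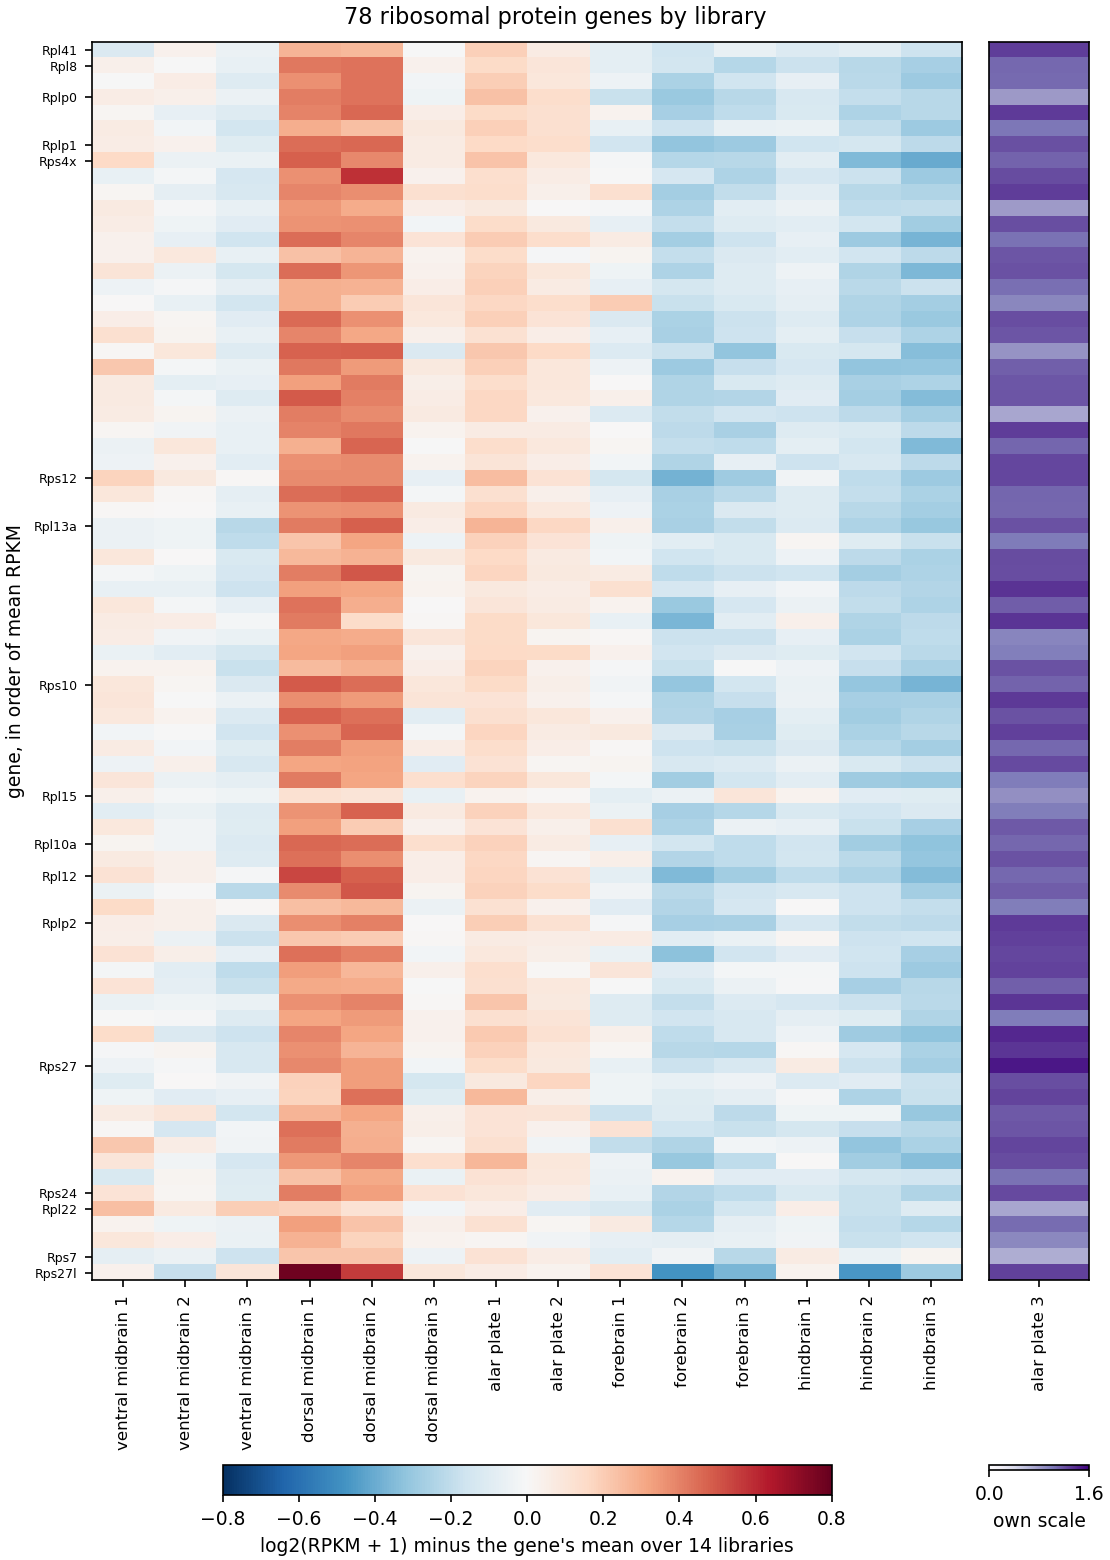
Level of the 78 tested ribosomal protein genes in each library as log2(RPKM + 1) minus the gene's mean over 14 libraries, with genes in order of mean RPKM and some rows named; alar plate 3 has its own colour scale at the right. Dorsal midbrain 1 and 2 are the 2 highest of the 14 libraries for 75 of the 78 genes, and the row of Rpl15 is nearly flat.

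This count rested on dorsal midbrain 1 and 2 and on leaving out alar plate 3. It was 35 without dorsal midbrain 1 and 41 without dorsal midbrain 2, and with all 15 libraries limma called 0 of 78 (1 at an unadjusted p under 0.05), against 18.2% of all genes called higher, although 77 of the 78 differences were above 0 and their median was 0.22. After the trend with gene length was taken out of each of the 14 libraries the count was 48 and the median 0.20. With all 15 libraries as deposited the alar plate had a larger median difference than the dorsal midbrain, 0.47 against 0.22. The share of all genes called is not given here for fits with 1 library left out or the length trend removed.

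Markers of cell division and of other tissues moved with the dorsal midbrain. All 20 proliferation genes, such as Mki67 and Top2a, were higher there, with a median difference of 1.47, and their summed level was between 528 and 1167 RPKM in the dorsal midbrain against 161 to 502 RPKM in the forebrain, 205 to 343 in the hindbrain, 252 to 370 in the ventral midbrain and 408 to 428 in alar plate 1 and 2. By library that sum was 1167, 1044 and 528 RPKM in dorsal midbrain 1, 2 and 3, in the same order as the ribosomal protein share of these 3. The 2 orders also matched within the ventral midbrain, within the forebrain and between alar plate 1 and 2. Hindbrain 1 led its region in both. Hindbrain 2 and 3 changed places, with sums of 205 and 220 RPKM and shares of 4.02% and 3.88%. Across regions the orders differed. Dorsal midbrain 3 and forebrain 1, at 528 and 502 RPKM, were above alar plate 1 and 2, at 428 and 408 RPKM. Their ribosomal protein shares were smaller, 4.69% and 4.55% against 5.10% and 4.83%. The neural progenitor and radial glia list was mixed. Of its 12 genes 4 were higher and 2 lower, with a median of 0.12, and its sum of 1328 to 1343 RPKM in the dorsal midbrain lay below that of the ventral midbrain, 1499 to 1704 RPKM. Of 15 pan-neuronal genes 13 were lower in the dorsal midbrain, with a median of -0.52 and a sum of 2416 to 3309 RPKM against 3200 to 4327 RPKM in the other 4 regions. Of 8 tested meningeal and mesenchymal genes 7 were higher, with a sum of 68.6 to 129 RPKM in the dorsal midbrain, 168 in alar plate 1, 9.27 in alar plate 2 and at most 16.4 RPKM elsewhere. Lum, a gene of that list, was at 0 in the 3 ventral midbrain libraries and in hindbrain 1 and 3. Of 7 erythroid genes 5 were higher, with sums of 1552 to 2713 RPKM against 1119 to 1652. Endothelial genes were higher for 7 of 13, with sums of 71.1 to 102 RPKM against 56.2 to 89.1. Genes of microglia and macrophages were higher for 6 of 9, with sums of 27.0 to 29.8 RPKM against 12.2 to 30.4. The F test over the 5 regions called 0 erythroid, 4 endothelial and 6 microglia and macrophage genes, beside 56.7% of all genes. Of 7 choroid plexus genes 3 were tested, Sulf1, Enpp2 and Folr1, and all 3 were lower in the dorsal midbrain. The sum over the list was 9.77 to 9.90 RPKM there against 11.2 to 369.5 RPKM in the other regions. Most of the high sums was Sulf1, at 280 to 336 RPKM in the ventral midbrain and 178 to 310 RPKM in the hindbrain. In the dorsal midbrain Sulf1 was at 0.838 RPKM or less. Ttr, Clic6, Kl and Aqp1 were under 1 RPKM in all 14 libraries, so this list says little about choroid plexus tissue there. The part of these cells in the ribosomal protein result was not tested.

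The hindbrain had the lowest regional mean for 64 of the 78 members, and the forebrain for 13. In the hindbrain 26 members were lower than in the mean of the other 4 regions (6.92% of all genes were called lower), 14 of 46 in the large and 12 of 32 in the small subunit. The median difference was -0.23, against -0.02 for all genes.

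The X-linked small subunit gene Rps4x had the largest difference. It was at 359, 298 and 288 RPKM in the hindbrain, at 379, 326 and 327 in the forebrain, at 427, 369 and 367 in the ventral midbrain, at 446 and 405 in the alar plate and at 531, 498 and 399 in the dorsal midbrain. Hindbrain 2 and 3 were the 2 lowest libraries, and hindbrain 1 was within the range of the forebrain. It fell by 0.37 (SE 0.0948, limma adjusted p 0.0271). Rpl12 fell by 0.34, Rps3a by 0.33, and Rpl10a by 0.33, all in the hindbrain. Rps7, another small subunit protein, stood at the other end with a difference of 0.01 (SE 0.0622, limma adjusted p 0.936).

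The hindbrain count varied with the libraries. It was 71 without dorsal midbrain 3. It was 10, 10 and 16 when ventral midbrain 1, 2 or 3 was left out, 12 and 9 when dorsal midbrain 1 or 2 was, and 4 and 13 when alar plate 1 or 2 was. Without hindbrain 2 or hindbrain 3 limma called 0, with 47 and 28 members at an unadjusted p under 0.05, and with all 15 libraries also 0, with 13 (2.27% of all genes were then called lower).

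In the forebrain 3 members (3.85%) were lower than in the other regions, a smaller share than the 5.65% of all genes called lower. The median was -0.17 over the 78 and -0.04 over all genes. Rplp0 and Rplp1 belong to the stalk, where Rplp0 anchors dimers of Rplp1 and Rplp2 that recruit and activate translation factors. Rplp1 was at 345, 308 and 314 RPKM in the forebrain, at 344, 348 and 332 in the hindbrain, at 399.6, 393 and 359 in the ventral midbrain, at 428 and 423 in the alar plate and at 524, 527 and 402 in the dorsal midbrain. Forebrain 2 and 3 were the 2 lowest. It fell by 0.33 in the forebrain (SE 0.0757, limma adjusted p 0.0250).

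Rplp0 was at 372, 342 and 360.4 RPKM in the forebrain and at 386, 369 and 360.1 in the hindbrain, so these 2 regions overlapped, and both lay below the other 8 of the 14 libraries, which ran from 408 to 569 RPKM. It fell by 0.31 in the forebrain (SE 0.0828, limma adjusted p 0.0439). Rplp2 had a forebrain difference of -0.24 (SE 0.0832, limma adjusted p 0.0892). The remaining member was Rps12, a small subunit protein, which fell by 0.35 (SE 0.0940, limma adjusted p 0.0435), with 218, 185 and 198 RPKM in the forebrain and 196 to 314 RPKM elsewhere.

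The forebrain count was 51 without dorsal midbrain 3, 21 without forebrain 1 and 0 without forebrain 2, forebrain 3 or alar plate 1, with 11, 17 and 26 members at an unadjusted p under 0.05. It was 1 without ventral midbrain 1, 2 or 3, dorsal midbrain 1 or 2, or hindbrain 1 or 3, and with all 15 libraries limma called 0, with 4 at an unadjusted p under 0.05 and 2.3% of all genes called lower. All 3 stalk genes were higher in the dorsal midbrain, Rplp1 by 0.39 (SE 0.0757), Rplp0 by 0.32 (SE 0.0828) and Rplp2 by 0.31 (SE 0.0832), as was Rpsa, the laminin receptor protein of the small subunit, by 0.36 (SE 0.0897).

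**Figure D3:**
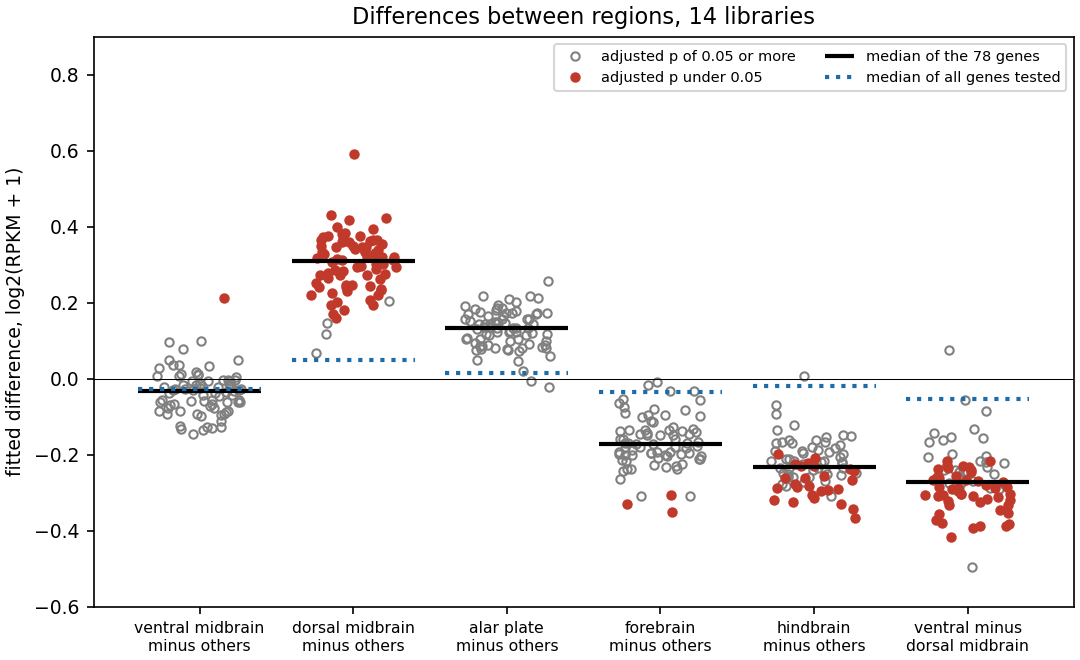
Fitted differences of the 78 tested ribosomal protein genes on the log2(RPKM + 1) scale for each region against the mean of the other 4 and for the ventral against the dorsal midbrain, in 14 libraries; red points have an adjusted p under 0.05, black lines are the members' medians and dotted blue lines those of all genes. The members' median is 0.31 in the dorsal midbrain, -0.23 in the hindbrain and -0.17 in the forebrain.

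In the 14 libraries the ventral midbrain, where dopaminergic neurons are born, and the alar plate lay between. The median difference of the ventral midbrain was -0.03, the same as that of all genes to 2 decimals, and 1 member changed, Rpl22, which was higher by 0.21 (SE 0.0621, limma adjusted p 0.0324, with 10.9% of all genes called higher and 19.6% in either direction). Rpl22, a large subunit protein that is not required for translation in general, was at 81.8, 72.5 and 79.2 RPKM in the ventral midbrain, at 78.7, 74.9 and 68.0 in the dorsal midbrain, at 71.6 and 64.9 in the alar plate, at 63.4, 57.8 and 62.2 in the forebrain and at 71.8, 61.0 and 64.2 in the hindbrain. The ventral and dorsal midbrain overlapped, and ventral midbrain 1 was the highest of the 14. The count was 0 without ventral midbrain 1, ventral midbrain 3, alar plate 2 or hindbrain 3, with 1 member at an unadjusted p under 0.05 each time, and 5 without dorsal midbrain 3. In the alar plate limma called 0 members (5 at an unadjusted p under 0.05), against 3.78% of all genes called. There 76 of the 78 differences were above 0, with a median of 0.13. With all 15 libraries the alar plate median was 0.47, the largest among the regions, and all 78 differences were above 0. Limma then called 0 members in the alar plate, with 75 at an unadjusted p under 0.05.

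Set directly against each other, the ventral midbrain was lower than the dorsal midbrain for 47 members (25.1% of all genes were called lower), with a median of -0.27 against -0.05 for all genes. Rpl13a, a large subunit protein, was at 230.4, 232 and 204 RPKM in the ventral and at 318, 332 and 247 RPKM in the dorsal midbrain, and the 2 regions did not overlap. It fell by 0.42 (SE 0.114, limma adjusted p 0.0128). Rps15 fell by 0.39, Rpl10a by 0.39 and Rpl28 by 0.38, all called. This count was 75 without dorsal midbrain 3, 3 when dorsal midbrain 1 or 2 was left out, 20 when ventral midbrain 2 was, 4 when ventral midbrain 3 was and, with all 15 libraries, 0 by limma (0 at an unadjusted p under 0.05, with 12.4% of all genes called lower).

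Over the 5 regions together 70 members differed (F test, 56.7% of all genes). The largest F statistics were those of Rpl10a, Rpl3, which helps form the peptidyl transferase centre, Rplp1, Rps18, Rps24 and Rpl12. The smallest were those of Rpl15, Rpl36, Rps28 and Rps21, and Rpl39, Rps7, Rpl30 and Rpl24 also missed the threshold. The count was 36 without dorsal midbrain 1 and 37 without dorsal midbrain 2. With all 15 libraries 4 members differed (33.7% of all genes), Rplp0, Rpl3, Rpl12 and Rpl13a.

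The members moved as a block from library to library. The SD of a member's log2 level over the 14 libraries had a median of 0.20. After the median deviation of the 78 members was taken off each library, that median was 0.07, and 72 of the 78 had an SD under 0.1.

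The members that departed most from the block were Rps27l with an SD of 0.20, Rpl22 with 0.15, Rpl15 with 0.15, Rps7 with 0.13 and Rpl36 with 0.11. Relative to the block, Rps27l was on average 0.23 higher in the dorsal midbrain and 0.11 lower in the forebrain. Rpl22 was 0.19 higher in the ventral midbrain and 0.15 lower in the dorsal midbrain, and Rpl15 was 0.19 lower in the dorsal midbrain and 0.12 higher in both the forebrain and the hindbrain. Rps7 was 0.19 higher in the hindbrain. Rps27l had the fewest reads of the tested members, 90 to 273 per library, so counting error is largest there.

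The pyrimidine run did not divide the members by their dorsal midbrain difference. The 28 members with a run had a median of 0.32 (range 0.07 to 0.43) and the 29 tested members with an entry and no run had 0.30 (range 0.12 to 0.59). For the CCGGAA motif the medians were both 0.30. These are medians without a test.

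Other genes of the ribosome and of translation were described from lists, whose counts in the dorsal midbrain stand beside 30.8% of all genes called higher and 22.5% lower. Of the 5 cytosolic ribosomal protein genes outside the symbol rule, 4 were higher in the dorsal midbrain, among them Rpl7l1 by 0.54 (SE 0.0829), Rpl22l1, the paralog of Rpl22, by 0.44 (SE 0.0917), and Rpl36al by 0.25 (SE 0.0453). Fau, a ubiquitin-like fusion gene, differed by 0.16 (SE 0.0768, limma adjusted p 0.0926). Rpl22l1 was also lower in the hindbrain by a difference of -0.33 (SE 0.0917, limma adjusted p 0.0365).

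Genes that build ribosomes had a similar profile. Of 80 nucleolar and ribosome assembly genes 59 were higher in the dorsal midbrain and 1 lower, with a median of 0.27, and in the hindbrain 1 was higher and 20 lower, with a median of -0.18. Lyar, a nucleolar growth regulator, was higher in the dorsal midbrain by 0.83 (SE 0.124), Dkc1, the pseudouridine synthase dyskerin, by 0.74 (SE 0.106) and Ltv1, a small subunit assembly factor, by 0.63 (SE 0.119). By library, the list's median deviation was 0.33, 0.27 and 0.07 in dorsal midbrain 1, 2 and 3, beside 0.37, 0.34 and 0.03 for the ribosomal proteins.

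Initiation factors were mostly higher in the dorsal midbrain, and the elongation factor list was more mixed. Of 42 initiation factors 29 were higher and 3 lower in the dorsal midbrain (69.0% and 7.14%), with a median of 0.19. Pabpc1, the poly(A) binding protein, was higher by 0.42 (SE 0.0987), and Eif4a2, a helicase whose mRNA is common in neurons, differed by -0.49 (SE 0.0881). Of 12 genes in a list of elongation factors that also holds Tpt1, the kinase gene Eef2k and the mitochondrial factor Tufm, 6 were higher and 2 lower. Eef1a2, the form of the elongation factor used by mature neurons and muscle, differed by -1.50 (SE 0.291), while Eef1a1, the common form, was higher by 0.18 (SE 0.0676) and Eif5a by 0.36 (SE 0.0564). Of 24 regulators of growth and of the translation of these mRNAs 10 were higher and 1 lower (41.7% and 4.17%), among them Eif4ebp1 by 0.85 (SE 0.250), Cnbp by 0.71 (SE 0.106) and Mycn by 0.41 (SE 0.129). Mtor differed by 0.02 (SE 0.0459, limma adjusted p 0.745) and Larp1 by -0.07 (SE 0.0466, limma adjusted p 0.201), and neither passed the test.

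Mitochondrial ribosomal proteins and subunits of the respiratory chain, which are also short, differed less. They were less abundant than the members, with sums of 1380 to 1709 RPKM and 5057 to 5615 RPKM in the 14 libraries. The sum of the members was 14540 to 22430 RPKM. Of 76 mitochondrial ribosomal protein genes 38 were higher in the dorsal midbrain, with a median of 0.18, led by Mrps9 with 0.61 (SE 0.113). Of 76 tested genes of the respiratory chain and ATP synthase 16 were higher (21.1%, a smaller share than of all genes) and 3 lower, with a median of 0.05, close to that of all genes. Differences between these lists were not tested. In the dorsal midbrain comparison the median of all genes was 0.09 in the shortest class of gene models, 0.06 and 0.04 in the next 2 and 0.01 in the longest.

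**Figure D4:**
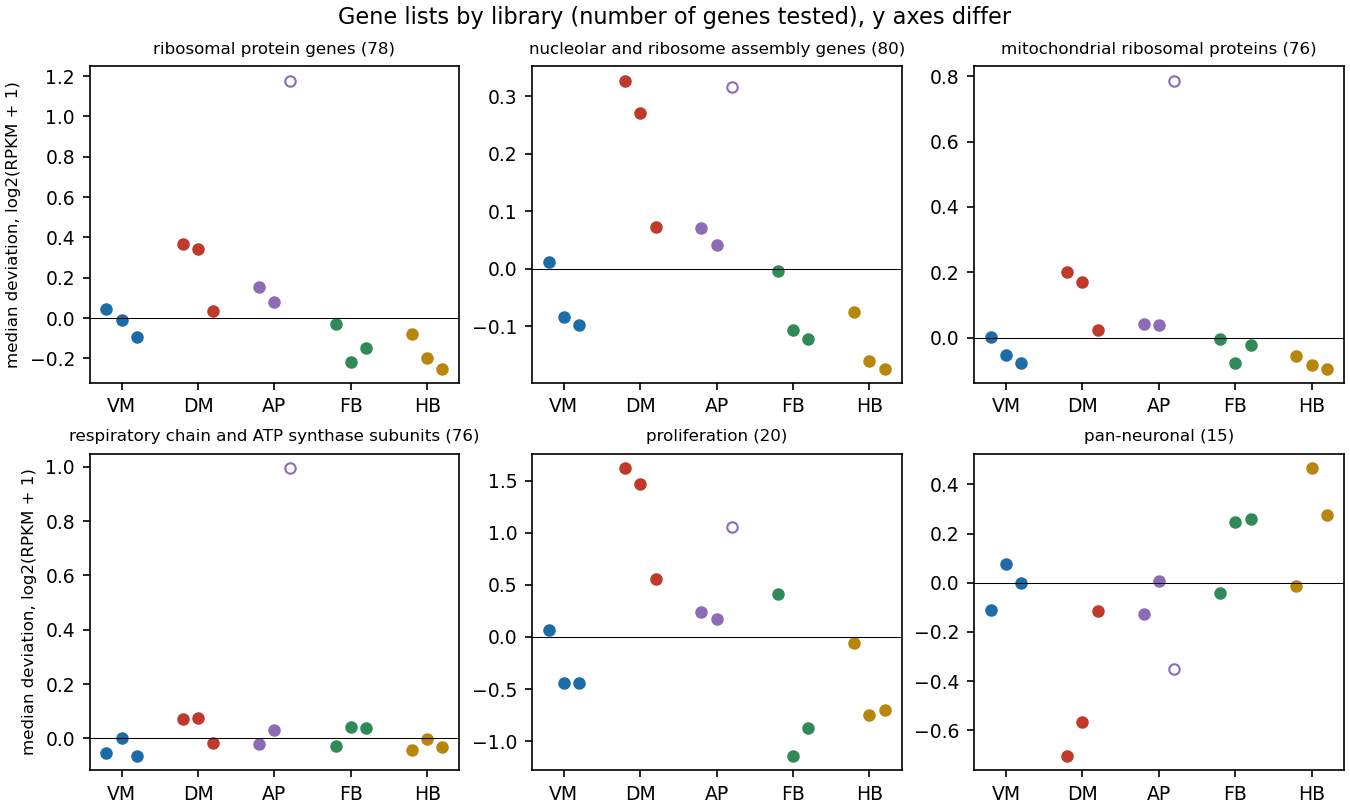
Median deviation of 6 gene lists from each gene's mean over 14 libraries, on the log2(RPKM + 1) scale, in ventral midbrain (VM), dorsal midbrain (DM), alar plate (AP), forebrain (FB) and hindbrain (HB) libraries; open points are alar plate 3, y axes differ, and the number tested stands in brackets. Ribosomal protein and nucleolar genes are highest in DM 1 and 2 among the 14 libraries, respiratory chain genes stay between -0.06 and 0.07 in all 14, and alar plate 3 is at 1.18, 0.32 and 0.996 for these 3 lists.

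In alar plate 3 the members held 7.85% of the summed RPKM and 3.94% of the recovered reads. All 78 tested members were above each of the other 14 libraries, an ordering found in 26.4% of all genes. Rpl41, which encodes the shortest of these proteins, was at 1338 RPKM there and at 623 and 573 RPKM in alar plate 1 and 2. The difference of alar plate 3 from the mean of the other 2 alar plate libraries had a median of 1.06 on the log2 scale, from 0.60 for Rps7 to 1.36 for Rps27. This is 1 library against 2, with no test.

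Gene length moved with it. The same difference had a median of 0.55 over all genes in the shortest class of gene models and -0.55 in the longest. After the length trend was taken out, the median of the members was 0.28, and 76 of 78 were above 0. Respiratory chain genes went from 0.99 to 0.21 and mitochondrial ribosomal proteins from 0.74 to 0.18. Proliferation genes were at 0.89 before and 0.85 after. Rps15a, the member with the longest gene model, was 0.92 higher in alar plate 3. Markers of other tissue also stood out in this library. The choroid plexus genes Ttr and Clic6 were at 89.3 and 2.44 RPKM there and at 0.859 RPKM or less and 0.135 RPKM or less in the other 14 libraries, while the other 5 genes of that list lay within the range of those libraries. The erythroid sum was 3277 RPKM, against 1652 and 1119 RPKM in alar plate 1 and 2. Over the 7 tested erythroid genes the median difference was 0.81 before and 0.29 after the length trend was taken out. The part of such tissue, of RNA quality or of the library's preparation in this was not tested.

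**Figure D5:**
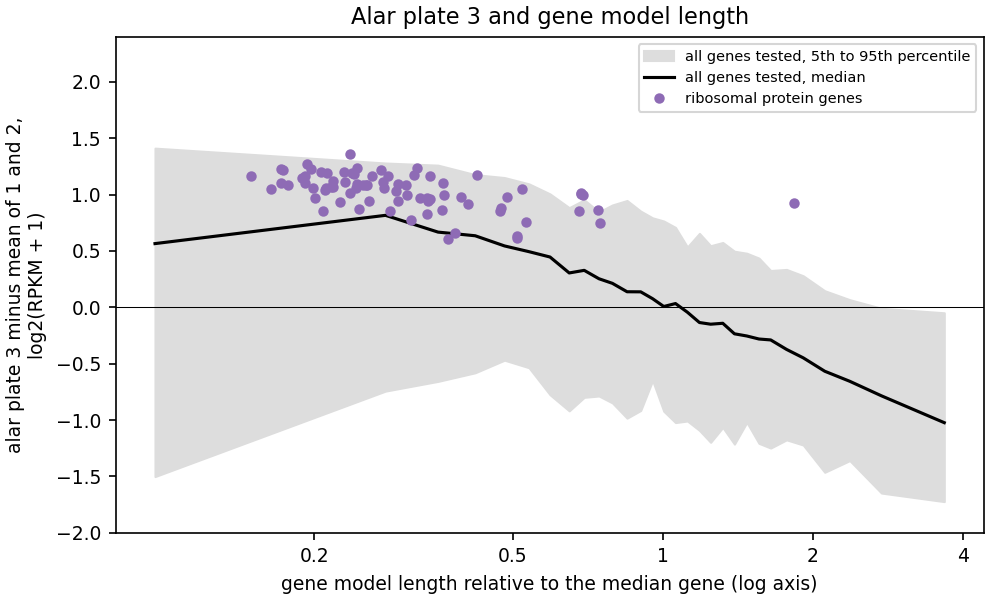
Difference of alar plate 3 from the mean of alar plate 1 and 2 on the log2(RPKM + 1) scale against gene model length relative to the median gene (log axis); the line and the grey band are the median and the 5th to 95th percentile of all genes tested, and points are the 78 ribosomal protein genes. All points lie above 0, between 0.60 and 1.36.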

How the data were processed

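The authors deposited 1 table for 24264 genes in 15 libraries, which its name gives as RPKM (reads scaled for gene model length and library depth). The submitters' processing notes name Bowtie and the mm9 build. Not given in the sources used here are the aligner's version, the annotation and how strand and multiply mapping reads were treated. Libraries were Illumina TruSeq preparations, per the labels' protocols.

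Values are whole multiples of a unit per gene and library. Read counts recovered from them were whole in every library for 16575 of 16612 genes (99.8%, within 0.02 reads at low values and at most 0.15), and summed to between 8030054 and 12149081 per library. They served for depth, shares and relative gene model lengths only, and intervals from them cover counting error only.

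Genes with at least 1 RPKM in at least 3 libraries were tested with limma 3.58.1 (R 4.3.3) on log2(RPKM + 1), with Benjamini-Hochberg adjustment and a threshold of 0.05. The fit had 5 regions and 14 libraries, alar plate 3 being left out. Each region was compared with the mean of the other 4, and the ventral with the dorsal midbrain. The fit and the read recovery were tested on simulated data. Members and lists were chosen with earlier results of these data known. Named were, per comparison, up to 5 called members with the largest differences each way, the 8 most and 8 least abundant, the 6 largest and 4 smallest F statistics, untested members, paralogs and stalk genes, Rpsa, and up to 3 called genes per list. Outside this rule are Mtor, Larp1, Eef1a1, Rpl24, Rpl30, Rps24 for its order, and the region and tissue markers. So are the dorsal midbrain differences of Rpl36 and Rps21, which it names only for small F statistics. These were named after their values were seen. Some genes that the rule names are not reported here. Alternatives changed the pseudocount, filter, scaling, length trend, replicate block and libraries. Start windows come from the RefSeq promoter table of GRCm38.p6, a build other than that of the RPKM values, and were matched by symbol.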

Additional observations from a re-analysis of the deposited data

Results flagged for a closer look

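Alar plate 3, the library left out of the fit on 14 libraries, held 7.849% of its summed RPKM in ribosomal protein genes, while the other 14 libraries held between 3.88% and 5.83%.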

How the results depend on the processing

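Counts are of ribosomal protein genes called among 78, and for counts that moved by more than 1.5 times the cause was not tested. Shares of all genes called are not given for most of these alternatives. A count can therefore have moved with the number of calls over all genes. With all 15 libraries the counts were 0 in the dorsal midbrain, forebrain, hindbrain and ventral midbrain and for ventral against dorsal midbrain, and 4 over the 5 regions. Without alar plate 3, dorsal midbrain 3 and forebrain 1 they were 66 in the forebrain, 74 in the hindbrain, 8 in the alar plate, 8 in the ventral midbrain and 75 for ventral against dorsal midbrain. Quantile normalization gave 10 in the forebrain, 13 in the hindbrain, 1 in the alar plate and 16 for ventral against dorsal midbrain. Median-ratio scaling gave 1 in the forebrain and 24 for ventral against dorsal midbrain, and moved the calls over all genes from 355 higher and 775 lower to 510 and 658 in the forebrain, from 4230 and 3083 to 3437 and 3638 in the dorsal midbrain and from 2497 and 3439 to 2851 and 2706 for ventral against dorsal midbrain. The larger side thus changed in the last 2. With the length trend removed from 15 libraries the counts were 17 in the dorsal midbrain, 5 in the hindbrain, 0 in the ventral midbrain, 2 for ventral against dorsal midbrain and 36 over the regions. With it removed from 14, an alternative chosen after seeing the data, they were 48, 6 in the forebrain, 16 in the hindbrain, 7 for ventral against dorsal midbrain and 45 over the regions. No filter gave 1 in the forebrain and 13 in the hindbrain, and a fit of only the ventral and dorsal midbrain gave 15.

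Leaving out 1 library gave 35 to 77 in the dorsal midbrain, 0 to 51 in the forebrain, 0 to 71 in the hindbrain, 0 in the alar plate, 0 to 5 in the ventral midbrain, 3 to 75 for ventral against dorsal midbrain and 36 to 77 over the regions. The replicate block gave 29 in the forebrain and 63 in the hindbrain. The labels do not say what a number shares. Same-numbered libraries deviated together in 22 of 26 pairs (r over 0.1), with r from -0.168 to 0.405 and a median of 0.243 against -0.157 for other numbers. Deviations were taken from the region's own mean and offset each other there, which by itself lowers r for other numbers. All pairs among ventral midbrain, forebrain and hindbrain were over 0.1, and pairs of dorsal midbrain 2 were not. Since every comparison with the other 4 regions includes the dorsal midbrain and pairing was to be used only if every pair was over 0.1, the fit without the block was kept. Of 461 values of 19 named gene results under alternatives, 369 kept direction and call, 92 kept direction and lost the call, and 0 reversed. Counts of 90 to 273 reads limit Rps27l most.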
